A study of Mus musculus with 9 samples.

Results

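The 7 genes described here encode the inhibitors of cyclin-dependent kinases (CDKs) in the mouse: Cdkn1a (p21), Cdkn1b (p27) and Cdkn1c (p57) of the CIP/KIP family, and Cdkn2a (p16 and p19ARF), Cdkn2b (p15), Cdkn2c (p18) and Cdkn2d (p19) of the INK4 family. They were found by symbol among the 47729 genes of the deposited tables, and all 7 were present. Cdkn1a was picked for its rise in Le-Cre lenses, from these same values, so its levels in Le-Cre are given as a description with no test; the other 6 were taken as members of the 2 families, whatever their values.

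RNA was sequenced from whole newborn lenses of 3 mouse lines, all on the FVB/N strain: the wild type strain itself, and lines hemizygous for the P0-3.9GFPCre or the Le-Cre transgene. Each line gave 3 pools, and each pool held 6 lenses from 3 mice. Both transgenes place Cre recombinase under the P0 promoter of Pax6, which is active in the lens placode and the surrounding surface ectoderm, and later in the lens epithelium. Per the study, both also encode green fluorescent protein (GFP), fused to Cre in P0-3.9GFPCre and made separately from Cre in Le-Cre. Effects of Cre and of GFP therefore cannot be told apart here. No floxed allele is named in the labels. The design asks what each transgene, with no target gene to delete, does to the RNA of the lens. Totals ran from 20670968 to 28098059 expected counts per pool, and crystallins took 39.1% to 43.0% of them. A whole lens holds a thin epithelium over a mass of fibre cells, so in these bulk samples fewer cells of a type and less RNA per cell cannot be told apart. The labels give no sex for the mice. The summed level of Ddx3y, Eif2s3y, Kdm5d and Uty, genes of the Y chromosome, was 121 to 193 CPM in FVB/N, 1.66 to 135 CPM in P0-3.9GFPCre and 0.602 to 74.2 CPM in Le-Cre.

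CDK inhibitors bind cyclin-CDK complexes and hold cells out of the division cycle. INK4 proteins bind CDK4 and CDK6 alone, whereas CIP/KIP proteins act on a wider range of cyclin-CDK complexes. In the lens, epithelial cells near the equator leave the cell cycle as they become fibre cells, and p57 and p27 are the inhibitors known for that exit. p21 is a textbook transcriptional target of p53, the factor that responds to DNA damage and other stress. The Cdkn2a locus makes a pair of unrelated proteins from separate first exons, and is usually silent in young tissue.

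Cdkn1a lies at chr17:29090976-29100727 on the plus strand (GRCm38, Gencode M21 gene bounds), and its RefSeq entries hold a pair of transcription starts. The 250 bases before each start are printed here because Cdkn1a is the inhibitor whose level differed most between the lines, and Cdkn1b is set beside it as a CIP/KIP gene of steady level. Sequences are those of RefSeq on GRCm38.p6, 5′ to 3′ on the plus strand. In the window of the upstream start of Cdkn1a, chr17:29090729-29090978, the capitals mark a match to the p53 consensus, a pair of adjoining 10-base half-sites. In the window of its downstream start, chr17:29093519-29093768, and in that of Cdkn1b, chr6:134920151-134920400, they mark GC boxes (GGGCGG on either strand), the letters bound by factors of the SP family.
Cdkn1a upstream start: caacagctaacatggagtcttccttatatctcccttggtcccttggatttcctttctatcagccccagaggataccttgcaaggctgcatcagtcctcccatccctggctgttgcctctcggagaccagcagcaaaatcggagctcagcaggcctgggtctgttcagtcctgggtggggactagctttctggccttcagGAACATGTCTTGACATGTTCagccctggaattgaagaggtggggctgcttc
Cdkn1a downstream start: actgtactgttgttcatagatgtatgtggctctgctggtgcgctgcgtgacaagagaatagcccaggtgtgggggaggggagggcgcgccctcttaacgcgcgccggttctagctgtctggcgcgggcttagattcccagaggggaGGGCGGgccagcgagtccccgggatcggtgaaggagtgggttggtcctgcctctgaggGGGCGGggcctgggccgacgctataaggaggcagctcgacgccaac
Cdkn1b: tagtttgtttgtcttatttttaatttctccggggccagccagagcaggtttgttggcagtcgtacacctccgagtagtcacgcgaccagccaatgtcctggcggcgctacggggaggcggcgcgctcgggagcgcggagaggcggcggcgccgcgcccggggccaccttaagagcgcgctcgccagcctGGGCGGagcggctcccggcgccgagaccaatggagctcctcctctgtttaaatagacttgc

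The p53 match begins 51 bases before the upstream start of Cdkn1a and departs from the consensus at 1 base outside the half-site cores. Each window searched ran from 250 bases before to 50 bases after a start, both strands were read (the consensus is its own reverse complement), and at most 1 mismatch outside the cores was allowed. Of 32851 such windows in the RefSeq table, 18 (0.0548%) held a match. Of the 9 windows of the 6 inhibitor genes with an entry, only the upstream window of Cdkn1a did. Among 27 windows of 20 other genes of the p53 core and its known targets, a list read below, none held a match. GC boxes were common: 7 of the 9 inhibitor windows held at least 1, against 35.7% of all windows. A CCAAT box (CCAAT on either strand) stood in 4 of the 9, against 37.4% of all windows, and TATAAA in none, against 13.6%. The upstream window of Cdkn1a was also poor in CpG, with 2 CpG dinucleotides and a GC content of 54.7%, where the first window of Cdkn2a had 45 and 77.0%. These are matches of letters and not measured sites.

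Of the 18 genes whose windows held the p53 match, 5 had enough counts in the lens to be tested. Their matches are shown in lower case with the half-site cores in capitals.
Cdkn1a: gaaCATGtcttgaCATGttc
Rps27l: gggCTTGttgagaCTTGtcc
Gtse1: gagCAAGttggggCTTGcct
Calhm2: gggCAAGcctaggCAAGatc
Sptbn4: gagCTAGcctaggCTAGtct
They lie at chr17:29090928-29090947, chr9:66946296-66946315, chr15:85859945-85859964, chr19:47138451-47138470 and chr7:27396234-27396253. Apart from Cdkn1a, none of the 5 had an unadjusted p under 0.05 in Le-Cre against FVB/N, where the log2 fold change was 1.59 for Calhm2, 0.13 for Sptbn4, 0.12 for Gtse1 and -0.30 for Rps27l. The Le-Cre pools of Calhm2 all lay above the FVB/N pools (means of 0.611 and 0.196 CPM). In P0-3.9GFPCre against FVB/N, Rps27l had a log2 fold change of -0.65 with overlapping pools (unadjusted p = 0.0175, adjusted p = 0.65, edgeR).

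The inhibitors covered more than 3 orders of magnitude on the TPM scale, which scales reads by transcript length and so allows levels of different genes to be compared. Cdkn1c stood far above the rest: mean TPM was 1388 ± 153 in FVB/N, 1511 ± 101 in P0-3.9GFPCre and 1205 ± 95.7 in Le-Cre (SD, n = 3 pools each). It ranked between 35 and 50 among all genes by TPM in the single pools, and made up 95.7% to 97.4% of the summed TPM of the 7. Cdkn1b was next at 32.8 ± 4.35 TPM in FVB/N (n = 3), 42.3 times below Cdkn1c.

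Below this pair the order depended on the line. In FVB/N, Cdkn2c (5.09 ± 0.595 TPM, n = 3) and Cdkn2d (4.06 ± 0.995 TPM) came next and their pools overlapped, followed by Cdkn1a at 0.853 ± 0.0709 TPM, and Cdkn2a and Cdkn2b were at or near 0. In P0-3.9GFPCre the order of the leading 5 was the same, and the pools of Cdkn2d (4.11 ± 0.922 TPM, n = 3) overlapped those of Cdkn1a (2.76 ± 1.56 TPM). In Le-Cre, Cdkn1a (8.02 ± 0.238 TPM, n = 3) stood above Cdkn2c (5.37 ± 0.0800 TPM) and Cdkn2d (3.71 ± 0.514 TPM), with no overlap between neighbours. FPKM in place of TPM gave the same order in every line, whereas counts per kilobase of the longest listed transcript placed Cdkn2d above Cdkn2c in FVB/N and P0-3.9GFPCre.

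**Figure D1:**
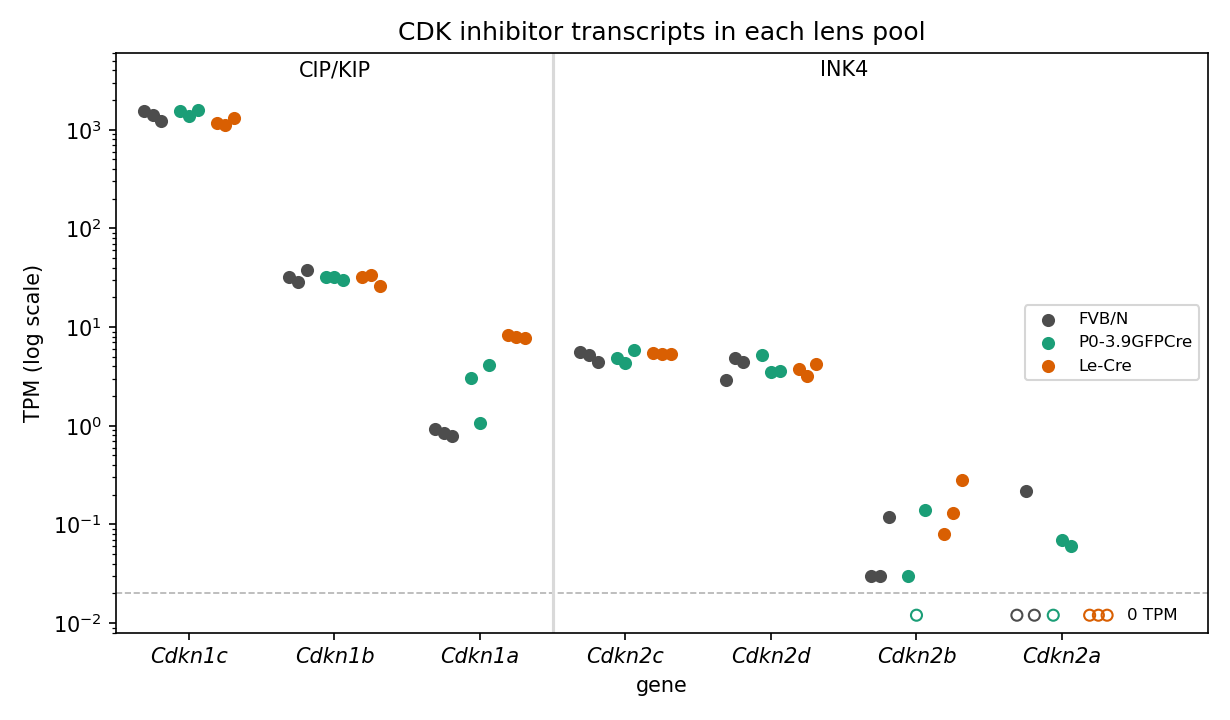
TPM (log axis) of each CDK inhibitor gene in each of the 9 lens pools, coloured by line; open circles below the dashed line are pools at 0 TPM. Cdkn1c sits between 1123 and 1572 TPM in the 9 pools, the pools of Cdkn1a separate by line, and Cdkn2a and Cdkn2b lie at or near 0.

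Cdkn1a, the p21 gene, was low in wild type lenses, intermediate and uneven in P0-3.9GFPCre, and high and even in Le-Cre. Expected counts were 34, 28 and 29 in FVB/N replicates 1, 2 and 3, then 91, 31 and 128 in P0-3.9GFPCre and 320, 283 and 261 in Le-Cre. As CPM, counts scaled to a common library size by TMM, these were 1.29, 1.20 and 1.19 in FVB/N, 3.74, 1.5 and 5.75 in P0-3.9GFPCre, and 11.4, 11.0 and 11.8 in Le-Cre. No pool of one line overlapped with a pool of another. In the annotation a gene model on the opposite strand, AC167363.2 (chr17:29093416-29094461), overlaps Cdkn1a, and reads of the pair could not be told apart if the libraries do not keep strand. The ratio of the mean CPM of Le-Cre to that of FVB/N was 9.31, and to that of P0-3.9GFPCre 3.11. The coefficient of variation was 4.29% in FVB/N and 3.36% in Le-Cre, against 58.0% in P0-3.9GFPCre, where replicate 2 lay just above the wild type pools.

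P0-3.9GFPCre against FVB/N is the contrast that did not serve to pick Cdkn1a, although it shares its FVB/N pools with the contrast that did. The fold change there was 2.99 (95% interval 1.70 to 5.26, log2 fold change 1.58 ± 0.37, SE), with an unadjusted p of 0.00134 in edgeR's quasi-likelihood test and an adjusted p (Benjamini-Hochberg) of 0.59 over the 15557 genes tested. It therefore did not pass the call used here, which asks for a 1.5-fold change in either direction and an adjusted p no higher than 0.05. Without P0-3.9GFPCre replicate 2, edgeR gave a log2 fold change of 1.95 (adjusted p = 0.0193), so the call changed with 1 pool left out. Without replicate 3 of that line, edgeR gave 1.11 (adjusted p = 0.97). The call changed with the filter as well: with all pools and no filter on low counts, edgeR gave 1.58 (adjusted p = 0.000388). That fit called 93 genes in this comparison, where the main fit called none. Of 19 alternatives, only 2 called Cdkn1a here, the fit without replicate 2 and the fit with no filter. DESeq2 with a prior, which shrinks changes of uncertain size, gave a log2 fold change of 0.38 and no adjusted p. For Le-Cre against FVB/N the same shrinkage gave 1.05, beside 3.21 by edgeR.

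The level of the Y-linked genes ran against Cdkn1a among the P0-3.9GFPCre pools: 56.2, 135 and 1.66 CPM in replicates 1, 2 and 3, beside Cdkn1a at 3.74, 1.5 and 5.75 CPM. In Le-Cre the Y-linked level was 1.55, 74.2 and 0.602 CPM, and Cdkn1a was at 11.4, 11.0 and 11.8 CPM in the same order. When the Y-linked level entered the edgeR model, Cdkn1a had log2 fold changes against FVB/N of 2.25 (Le-Cre) and 0.78 (P0-3.9GFPCre), where the model without it gave 3.21 and 1.58. The makeup of the pools by sex was not equal between the lines, and its part in these values was not tested beyond this fit.

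**Figure D2:**
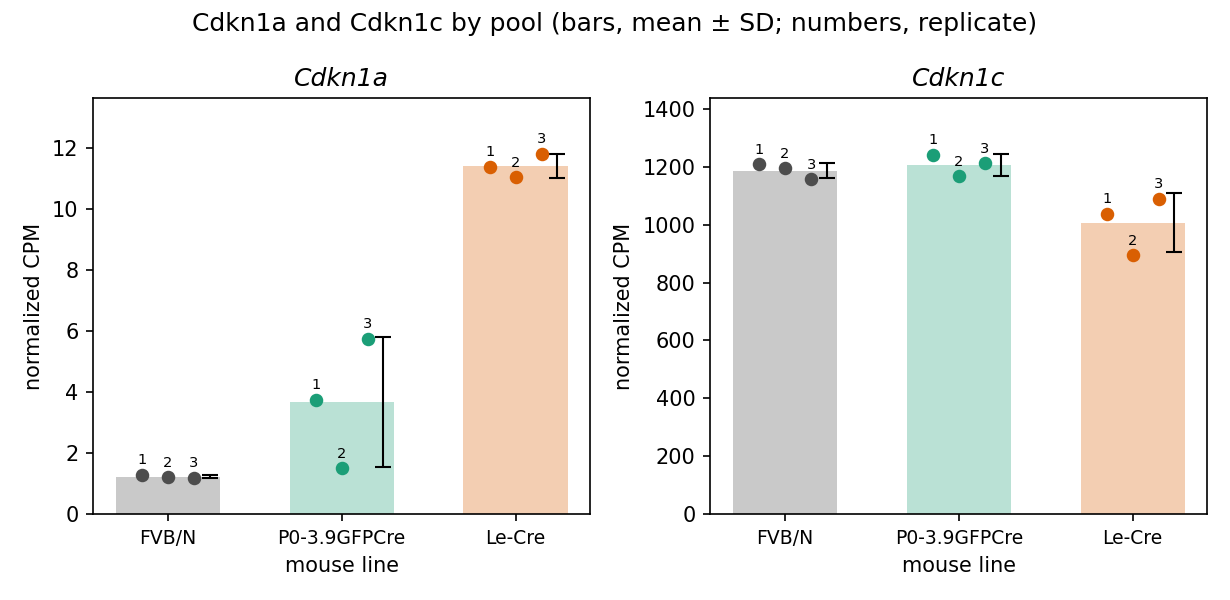
Normalized CPM of Cdkn1a (left) and Cdkn1c (right) in each pool, with bars for the mean of 3 pools, error bars for the SD and the replicate number above each point. Cdkn1a rises from about 1.2 CPM in FVB/N to about 11.4 CPM in Le-Cre with P0-3.9GFPCre spread between, and the 3 Le-Cre pools of Cdkn1c lie below all 6 other pools.

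Across all genes, 10 of 15557 passed the call in Le-Cre against FVB/N (0.0643%), none passed in P0-3.9GFPCre against FVB/N (0%) and none in Le-Cre against P0-3.9GFPCre (0%); at an unadjusted p under 0.05 the counts were 1236 (7.94%), 1060 (6.81%) and 1226 (7.88%). DESeq2 without a prior called 49, 3 and 35 genes. Of the inhibitors, 5 had enough counts to be tested, since Cdkn2a and Cdkn2b fell below the filter. Cdkn1a was picked on its Le-Cre values, so its calls where Le-Cre enters are not counted here. Of the other 4 tested inhibitors, none was called in any comparison by edgeR, DESeq2 or limma, and at an unadjusted p under 0.05 in edgeR only Cdkn1c stood out, in both comparisons with Le-Cre.

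Cdkn1c, the p57 gene and the maternally expressed member of an imprinted cluster, was the most abundant inhibitor, and apart from Cdkn1a the only tested 1 in which Le-Cre did not overlap the other lines. Its CPM was 1208, 1196 and 1157 in FVB/N replicates 1 to 3 and 1242, 1167 and 1212 in P0-3.9GFPCre, against 1038, 895 and 1089 in Le-Cre. All 3 Le-Cre pools were below all 6 others. The fold change in Le-Cre was 0.849 against FVB/N (95% interval 0.758 to 0.95, unadjusted p = 0.00849, adjusted p = 0.44) and 0.835 against P0-3.9GFPCre (0.746 to 0.934, unadjusted p = 0.00475, adjusted p = 0.43), in edgeR's quasi-likelihood test over all genes. Neither passed the call. Pools of 2 lines failed to overlap for 13.5% of all genes tested in the first of these comparisons and for 14.1% in the second, so such a separation was not rare. P0-3.9GFPCre and FVB/N gave a fold change of 1.02 in edgeR (0.909 to 1.14, adjusted p = 0.97).

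On the TPM scale the separation of Cdkn1c was lost against FVB/N: the pools were at 1536, 1398 and 1231 TPM in FVB/N, 1567, 1395 and 1572 TPM in P0-3.9GFPCre, and 1181, 1123 and 1310 TPM in Le-Cre. TPM rests on the length that RSEM assigned to the gene, which ran from 880 to 1001 bases between pools although its longest listed transcript has 1901. Expected counts of Cdkn1c were whole in none of the 9 pools (to within 0.005), so some reads were divided between it and other features, whereas those of the other inhibitors were whole wherever above 0. In the annotation the antisense gene Gm44732 overlaps Cdkn1c (chr7:143458339-143461050, minus strand) on the opposite strand, and the library kit is not stated to keep strand, so reads of the pair could not be told apart.

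Cdkn1b, the p27 gene (chr6:134920401-134925513, plus strand), was steady. Its CPM was 73.2, 67.6 and 86.1 in FVB/N, 68.3, 75.3 and 71.7 in P0-3.9GFPCre, and 73.3, 72.0 and 65.0 in Le-Cre. The lines overlapped throughout, and the fold change against FVB/N stood at 0.927 for Le-Cre (95% interval 0.807 to 1.06, adjusted p = 0.83) and 0.949 for P0-3.9GFPCre (0.826 to 1.09, adjusted p = 0.90), by edgeR.

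Among the INK4 genes, Cdkn2c and Cdkn2d were expressed at a few TPM and differed little. Cdkn2c, which encodes p18 (chr4:109660876-109667189, minus strand), had CPM of 8.40, 8.26 and 8.11 in FVB/N, 7.98, 6.83 and 9.25 in P0-3.9GFPCre, and 9.64, 7.49 and 9.18 in Le-Cre. The FVB/N pools sat inside the range of both transgenic lines. The edgeR fold change against FVB/N was 1.06 for Le-Cre (0.861 to 1.31, adjusted p = 0.93) and 0.972 for P0-3.9GFPCre (0.786 to 1.20, adjusted p = 0.98). Cdkn2d, which encodes the INK4 protein p19 (chr9:21288410-21291407, minus strand), had CPM of 3.40, 5.51 and 5.28 in FVB/N, 5.59, 3.97 and 4.08 in P0-3.9GFPCre, and 4.34, 3.39 and 4.98 in Le-Cre. Pools of each line spread more than the lines differed, and with 82 to 136 counts a pool the intervals were wide. The edgeR fold change was 0.896 for Le-Cre (0.631 to 1.27, adjusted p = 0.92) and 0.965 for P0-3.9GFPCre (0.679 to 1.37, adjusted p = 0.98), so a 1.5-fold drop in Le-Cre lay inside its interval.

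Cdkn2a and Cdkn2b, which lie side by side on chromosome 4 (chr4:89274471-89294653 and chr4:89306299-89311039, minus strand), were at the limit of detection. Cdkn2a had 0, 4 and 0 counts in FVB/N, 0, 1 and 1 in P0-3.9GFPCre and 0 in all 3 Le-Cre pools. A count of 0 allows up to 3 counts (a one-sided limit), or 0.107 to 0.133 CPM in the Le-Cre pools, so a difference between the lines was not detectable at this depth. Cdkn2b had 1, 1 and 4 counts in FVB/N, 1, 0 and 4 in P0-3.9GFPCre and 3, 4 and 8 in Le-Cre. The highest pool, Le-Cre replicate 3, has a central 95% Poisson interval of 3.45 to 15.8 counts, which covers counting error alone and takes in the 4 counts of the highest FVB/N pool. No separate counts are given for the p16 and p19ARF transcripts of Cdkn2a, whose listed lengths are 852 and 895 bases. The length that RSEM assigned to the gene was 891 bases in FVB/N replicate 2 and 852 bases in P0-3.9GFPCre replicates 2 and 3. So few counts leave the division between the transcripts uncertain.

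**Figure D3:**
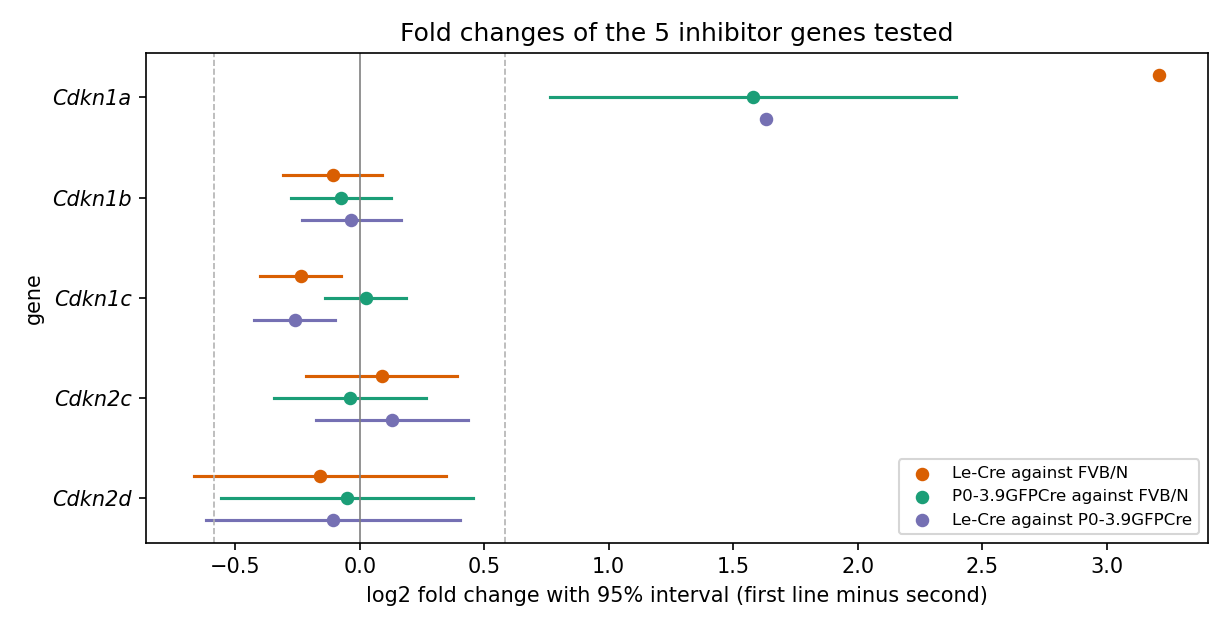
Log2 fold change of the 5 tested inhibitors in the 3 comparisons (first line minus second), with 95% intervals from edgeR's quasi-likelihood fit and dashed lines at 1.5-fold; Cdkn1a, picked on its Le-Cre values, has no interval where Le-Cre enters. Cdkn1b, Cdkn2c and Cdkn2d lie around 0, and the Le-Cre values of Cdkn1c lie slightly below.

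Since p21 is a p53 target, 26 genes of the p53 core and its known targets were read beside it (Cdkn1a itself left out), of which 24 were tested. The list holds genes that the study had already reported as raised in Le-Cre from these data, among them Trp53inp1, Phlda3 and Ephx1. Its counts are therefore a description and no independent test. The genes shown above with a p53 match stand outside this list. Among them, Rps27l had log2 fold changes against FVB/N of -0.30 in Le-Cre and -0.65 in P0-3.9GFPCre. Those of Calhm2, Sptbn4 and Gtse1 were positive in both lines. In Le-Cre against FVB/N, 1 of the 24, Trp53inp1, was called, 13 were higher and none lower at an unadjusted p under 0.05, and 14 had all Le-Cre pools above all FVB/N pools and none below. Over all genes, 7.94% had an unadjusted p under 0.05 and 13.5% did not overlap, in either direction. The median log2 fold change of the 24 was 0.31, beside 0.00 over all genes. In P0-3.9GFPCre against FVB/N, which shares the FVB/N pools, none was called, 6 were higher and none lower at an unadjusted p under 0.05, 6 had pools that did not overlap (all higher; 12% of all genes did not overlap, in either direction), and the median was 0.17.

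Trp53inp1, which encodes a stress protein induced by p53, had 5.90, 6.11 and 5.32 CPM in FVB/N, 6.42, 7.65 and 7.45 CPM in P0-3.9GFPCre, and 10.7, 14.0 and 10.9 CPM in Le-Cre. Its fold change in Le-Cre against FVB/N was 2.06 (adjusted p = 0.0331, edgeR), with no overlap. Eda2r, a receptor of the tumour necrosis factor family, had the largest fitted change of the list, from 0.227, 0 and 0.246 CPM in FVB/N to 0.494, 0.533 and 0.898 CPM in P0-3.9GFPCre and 2.21, 1.72 and 2.44 CPM in Le-Cre. Ddit4l, a stress-induced inhibitor of mTOR signalling, had 0.567, 0.387 and 0.0409 CPM in FVB/N, 0.905, 0.824 and 1.08 CPM in P0-3.9GFPCre and 1.99, 2.15 and 2.04 CPM in Le-Cre. For both, P0-3.9GFPCre lay between the other lines with no overlap, but neither passed the call in Le-Cre (adjusted p = 0.0965 and 0.21 in edgeR).

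Trp53, the p53 gene, and Mdm2, its ubiquitin ligase, head the pathway and are named for that. Trp53 had 11.3, 11.5 and 11.3 CPM in FVB/N, 11.4, 14.7 and 12.5 CPM in P0-3.9GFPCre, and 14.2, 13.7 and 12.9 CPM in Le-Cre (adjusted p = 0.59 in Le-Cre against FVB/N, edgeR). Mdm2 had 37.5, 37.9 and 40.8 CPM in FVB/N, 38.2, 39.0 and 39.4 CPM in P0-3.9GFPCre, and 41.3, 40.9 and 46.1 CPM in Le-Cre (adjusted p = 0.68, edgeR). Both sets of Le-Cre pools lay above the FVB/N pools, by margins far smaller than that of Cdkn1a.

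The targets of the inhibitors were next. Of 15 tested cyclins and CDKs, none was called in any comparison. In Le-Cre against FVB/N 3 were higher and none lower at an unadjusted p under 0.05 in edgeR, with a median log2 fold change of 0.11. Over all genes, 7.94% passed that p, in either direction. Cdk1, the mitotic kinase, was at 22.2, 21.6 and 25.6 CPM in FVB/N, 30.8, 26.7 and 30.2 CPM in P0-3.9GFPCre and 30.1, 29.1 and 31.2 CPM in Le-Cre. Both transgenic lines lay above wild type, with log2 fold changes of 0.38 ± 0.09 and 0.34 ± 0.09 (SE, Le-Cre and P0-3.9GFPCre; adjusted p = 0.24 and 0.59, edgeR). Ccna2, the cyclin A of dividing cells, had log2 fold changes of 0.32 and 0.18 in the same order.

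Genes of dividing cells at large were read next. Of 23 tested proliferation markers, none was called. In Le-Cre against FVB/N 6 were higher and none lower at an unadjusted p under 0.05 in edgeR, with a median log2 fold change of 0.18. All Le-Cre pools lay above all FVB/N pools for 8 of the 23 and below for none. Over all genes, 7.94% passed that p and 13.5% did not overlap, in either direction. Rrm2, a subunit of ribonucleotide reductase, had a log2 fold change of 0.42 and Bub1, a spindle checkpoint kinase, of 0.59 (adjusted p = 0.42 and 0.51, edgeR). The lowest value of the list was -0.13, that of Tyms, the thymidylate synthase gene. The summed level of the list was 426 to 504 CPM in FVB/N, 446 to 538 CPM in P0-3.9GFPCre and 507 to 521 CPM in Le-Cre. Of the 13 RB and E2F genes, through which the inhibitors act on transcription, none was called and the median was -0.01; E2f8 and E2f2, an atypical and an activating E2F, had the largest log2 fold changes in Le-Cre, 0.47 each.

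**Figure D4:**
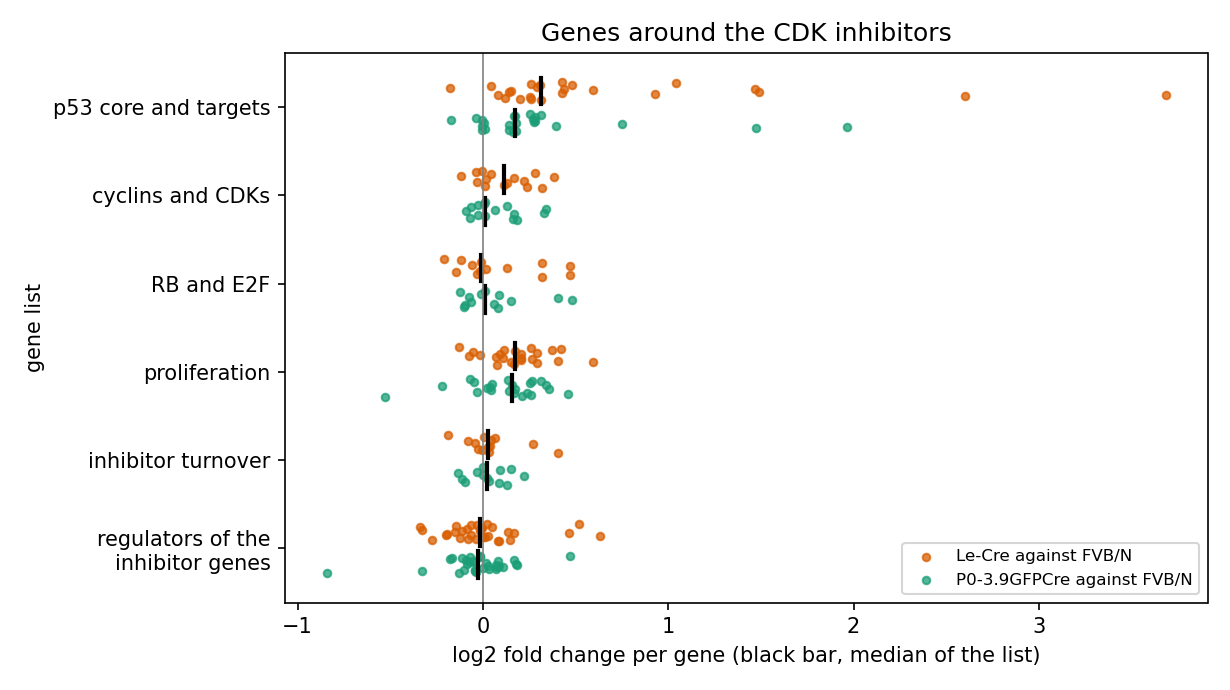
Log2 fold change of each tested gene in 6 lists around the inhibitors, in Le-Cre and in P0-3.9GFPCre against the same FVB/N pools; black bars are list medians. The p53 list is shifted to the right with a median of 0.31 in Le-Cre and 0.17 in P0-3.9GFPCre, and the other lists centre between -0.03 and 0.18.

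Genes that act on the inhibitors had small median changes in Le-Cre against FVB/N. The 13 tested genes of inhibitor turnover, the ubiquitin ligases and partners that destroy p21, p27 and p57, had a median log2 fold change of 0.03 in Le-Cre and none was called. The largest values were 0.40 for Cdc20, an activator of the anaphase-promoting complex, and 0.27 for Dtl, the substrate receptor that sends p21 to degradation. Of 32 tested regulators known to act on the promoters of the inhibitor genes, none was called. In Le-Cre against FVB/N 2 were higher and 4 lower at an unadjusted p under 0.05 in edgeR, beside 7.94% of all genes in either direction. The largest changes there were those of Heyl, a Notch effector, at 0.63, and Tbx2, a repressor of Cdkn1a, at 0.52 (adjusted p = 0.57 and 0.82, edgeR). In P0-3.9GFPCre against FVB/N the regulators ran from -0.84 to 0.47, and in Le-Cre against P0-3.9GFPCre from -0.31 to 0.93. In the last, 5 had all Le-Cre pools higher and 4 all lower, where 14.1% of all genes did not overlap in either direction.

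Of the imprinted cluster around Cdkn1c on distal chromosome 7, 9 of 14 genes were tested, Cdkn1c included, and none was called. Igf2, a fetal growth factor expressed from the paternal copy, had 110.3, 109 and 113 CPM in FVB/N, 145, 127 and 120.0 CPM in P0-3.9GFPCre and 148, 153 and 142 CPM in Le-Cre. Its pools did not overlap between FVB/N and either transgenic line, at a log2 fold change of 0.41 in Le-Cre (adjusted p = 0.0965) and 0.24 in P0-3.9GFPCre (adjusted p = 0.63, edgeR). H19, the maternally expressed RNA beside Igf2, had a log2 fold change of 0.00 in Le-Cre. Kcnq1 was near 0 in all lines, with means of 0.53 CPM (FVB/N), 0.16 CPM (P0-3.9GFPCre) and 0.28 CPM (Le-Cre), and its P0-3.9GFPCre pools lay below those of FVB/N (log2 fold change -1.68, unadjusted p = 0.0256, adjusted p = 0.66, edgeR).

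Neighbouring genes of the inhibitors were compared to see whether a change spread along the chromosome. The nearest tested neighbour before Cdkn1a, Trp53cor1 (lincRNA-p21), lies 11.8 kb away and is itself a p53-induced RNA. Its log2 fold change was 1.61 ± 0.48 (SE) in Le-Cre against FVB/N, without overlap (unadjusted p = 0.00672, adjusted p = 0.40, edgeR), and 0.79 ± 0.49 in P0-3.9GFPCre. Rab44, 13.4 kb after Cdkn1a, had 0.55 ± 0.67 in Le-Cre and -0.96 ± 0.75 in P0-3.9GFPCre. The neighbours of Cdkn1c, Kcnq1 at 31.3 kb and Nap1l4 at 52.5 kb, had -0.96 ± 0.61 and -0.11 ± 0.07 in Le-Cre. None of the neighbours of the 5 tested inhibitors passed the call in any comparison.

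The genes most like Cdkn1a over the 9 pools, by Pearson's r of log2 CPM among 13040 other genes of at least 1 CPM, were Slc35d1 (r = 0.975), Serpine2 (0.964), Ceacam2 (0.961), Gm28874 (0.944) and Ephx1 (0.943). The 9 pools share their lines, so r here mostly follows the line means, and no p is given. Serpine2, a secreted protease inhibitor, had 4.01, 4.30 and 3.64 CPM in FVB/N, 4.61, 3.92 and 6.42 CPM in P0-3.9GFPCre and 9.68, 10.3 and 9.86 CPM in Le-Cre. Ceacam2, a cell adhesion protein, had 41.0, 39.8 and 42.3 CPM in FVB/N, 61.9, 45.1 and 58.9 CPM in P0-3.9GFPCre and 63.0, 69.1 and 73.5 CPM in Le-Cre. In both, as in Cdkn1a, P0-3.9GFPCre replicate 2 was the pool of its line nearest to wild type. Both were picked for likeness to Cdkn1a over these same pools, so that shared pool is no separate observation. Ephx1, an epoxide hydrolase, also stands in the p53 list. For the other tested inhibitors the nearest genes were Sec16a and Mical3 (Cdkn1b), Rpl8 and Arpc3 (Cdkn1c), Sept5 and Wdr54 (Cdkn2c), and Trim6 and Cnnm2 (Cdkn2d), with r from 0.919 to 0.960.

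The identity of the tissue was checked on marker lists. Fibre markers, crystallins among them, summed to 237733 to 277234 CPM in FVB/N, 228649 to 239784 CPM in P0-3.9GFPCre and 224388 to 268995 CPM in Le-Cre, and epithelial markers to 7256 to 8416, 6252 to 7981 and 7630 to 8587 CPM. No gene of either list was called, and the summed levels of the Le-Cre pools overlapped those of FVB/N. Of the 14 tested epithelial markers, however, 5 (Pdgfra, Mab21l1, Npnt, Cdh1 and Tfap2a) had all Le-Cre pools below all FVB/N pools and none above. The median log2 fold change of the 14 was -0.12. Of the 20 fibre markers 3, among them Dnase2b, lay lower in this way and none higher. Over all genes, 13.5% did not overlap in this comparison, in either direction. In P0-3.9GFPCre against FVB/N, 4 epithelial and 6 fibre markers lay lower without overlap and none higher, where 12% of all genes did not overlap. The largest epithelial change in Le-Cre against FVB/N was upward, that of Krt18 (log2 fold change 0.82, means of 0.939 and 0.539 CPM), with overlapping pools. Lgsn had the largest change of the fibre markers (-2.89), also with overlap, and its FVB/N pools were uneven at 0.340, 5.29 and 0.164 CPM. The part of these marker differences in the Cdkn1a and Cdkn1c values was not tested. Pdgfra, a receptor of the lens epithelium, had means of 168 CPM (FVB/N) and 127 CPM (Le-Cre; log2 fold change -0.40 ± 0.08, SE; adjusted p = 0.17, edgeR), with no overlap. Vessel markers summed to 112 to 120.4, 72.1 to 122 and 106 to 127 CPM in FVB/N, P0-3.9GFPCre and Le-Cre, blood cell markers to 45.0 to 88.9, 41.7 to 68.9 and 45.3 to 120.2 CPM, and retina and pigment epithelium markers to 31.4 to 54.2, 30.4 to 39.5 and 27.7 to 48.6 CPM. Macrophage markers stayed at or below 5.16 CPM and cornea and surface markers at or below 2.91 CPM in every pool, with 3 of the 9 cornea and surface genes at 0 in all pools. None of the genes in these 5 lists was called, and the ranges of Le-Cre and FVB/N overlapped in each.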

How the data were processed

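Per the labels and the study's methods, polyadenylated RNA was sequenced as single-end reads, trimmed with Trimmomatic 0.36, aligned to GRCm38 with GSNAP and quantified by the authors with RSEM 1.3.0; the annotation release is not given in the sources used here. The deposited tables hold, per gene, expected counts, TPM and FPKM made by the authors with RSEM, gene lengths, and the bounds of RSEM's interval for TPM, a score not used in any test. Symbols and positions came from Gencode M21 (47224 of 47729 genes matched).

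From these, expected counts were rounded, 15557 genes passed edgeR's filterByExpr, and libraries were scaled by TMM. The 9 pools entered 1 edgeR 4.0.16 quasi-likelihood fit with a coefficient for each line, and p-values were adjusted by Benjamini-Hochberg over all tested genes. Levels between genes were compared as deposited TPM. The scripts were tested on simulated data. The p-values weigh the difference between lines against a spread between pools that all lines share in the fit.

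Alternatives were other size factors, library sizes without crystallins, other filters, DESeq2 1.42.0, limma 3.58.1 on log2(TPM + 0.1), only the pools compared, a replicate block, the Y-linked level, and each pool left out. Counts per kilobase of the longest transcript were added after seeing the data. Named genes were all 7 inhibitors, genes of each list that were called or had the 2 largest changes in Le-Cre, nearest tested neighbours, and the genes closest in pattern. No gene of the vessel, blood cell, macrophage, retina or cornea lists is named. Tyms, Mab21l1, Npnt, Cdh1 and Tfap2a were named after their values were seen. The inhibitors and the gene lists were chosen with earlier results of these data known.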

Additional observations from a re-analysis of the deposited data

How the results depend on the processing

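Leaving out the filter on low counts, 131, 93 and 123 genes were called in Le-Cre against FVB/N, P0-3.9GFPCre against FVB/N and Le-Cre against P0-3.9GFPCre (10, 0 and 0 as reported), with 1 inhibitor, Cdkn1a, in each. A mean of at least 10 counts gave 5 in the first. DESeq2 without prior called 49, 3 and 35 genes, with Cdkn1a also in the last (1 inhibitor); DESeq2 with prior called 1 and 4 in the second and last, with Cdkn1a again in the last (1 inhibitor). limma on log2(TPM + 0.1) called 0 genes and 0 inhibitors in Le-Cre against FVB/N. A fit of only the pools compared called 31 in the last. The Y-linked covariate left 1 gene called in the first, with 0 inhibitors, and 1 in the second. The cause of these shifts was not tested. Calls of Cdkn1a where Le-Cre enters follow from how it was picked and are no test.

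The labels do not say whether pools with the same replicate number share a litter or a day. Residuals of same-numbered pools correlated from -0.104 to 0.12, with 5 of 9 pools correlating best with their own number. Pools of different numbers correlated from -0.171 to 0.116. These values cannot tell whether a number marks a shared day. The replicate block called 2 genes in Le-Cre against FVB/N and changed no inhibitor's call.

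With single pools left out, calls ran from 0 to 10 in Le-Cre against FVB/N, 0 to 14 in P0-3.9GFPCre against FVB/N and 0 to 18 in the last. Inhibitors called ran from 0 to 1 in the first, 0 without any 1 of the 6 FVB/N and Le-Cre pools, and from 0 to 1 in the second, 1 only without P0-3.9GFPCre replicate 2. Wherever an inhibitor was called it was Cdkn1a. It was picked on its Le-Cre values, so its calls in the first are no test.

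Over 19 alternatives, Cdkn1c ran from -0.3583 to -0.155 in Le-Cre against FVB/N and was called in none. Against FVB/N, the log2 fold change of Cdkn1a lay between 1.0546 and 3.2513 for Le-Cre, and for P0-3.9GFPCre between 0.3762 and 1.9478, lowest in both by DESeq2 with prior; its direction and calls in Le-Cre follow from how it was picked and support nothing. Signs turned only where the reported log2 fold change was small. Cdkn2d in P0-3.9GFPCre against FVB/N was 0.0261 by limma and ran from -0.2418 to 0.0715 with a pool left out; in Le-Cre against P0-3.9GFPCre it ran from -0.2363 to 0.0715. With a pool left out, Cdkn1b ran from -0.1506 to 0.0279 in P0-3.9GFPCre against FVB/N and from -0.0671 to 0.0165 in Le-Cre against P0-3.9GFPCre, and Cdkn2c from -0.1549 to 0.0641 in P0-3.9GFPCre against FVB/N. With the Y-linked covariate, Cdkn2c was -0.271 in Le-Cre and Cdkn1c -0.0576 in P0-3.9GFPCre, both against FVB/N. Counts of 82 to 136 a pool for Cdkn2d and at most 8 for Cdkn2a and Cdkn2b limit what could be seen for them.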
